A study of Mus musculus with 4 samples.

Results

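A set of 10 genes of the actin cytoskeleton and cell migration, 10 of the 56748 gene IDs in the count tables, were followed in lymph nodes of mice with experimental autoimmune encephalomyelitis (EAE). They were picked by symbol: Tln1, Tes and Svil couple actin to adhesions or membranes, Capza2, Coro2a and Tpm2 act on the filament, and Rock1, Trio, Arhgap12 and Arhgef39 belong to signalling by small GTPases that steer the cytoskeleton. EAE, in which an autoimmune attack on the brain and spinal cord is induced, is a model of multiple sclerosis. The 4 mice formed 2 groups: BrQ (2-bromo-1,4-naphthalenedione, a brominated naphthoquinone; replicates 1 and 3) and Vehicle (replicates 1 and 3). All 4 had EAE, so the comparison holds no healthy animal, and the sources used here give no strain, sex, age, dose or day of sampling. Whole tissue was sequenced, so fewer cells of a type and less RNA per cell cannot be told apart.

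Actin filaments grow and shrink at their ends and are pulled on by myosin, and lymphocytes use both to crawl through the lymph node and to hold contacts with other cells. Small GTPases switch this machinery. They are turned on by guanine nucleotide exchange factors (GEFs), turned off by GTPase-activating proteins (GAPs), and act through kinases such as ROCK1. Talin links integrins, the adhesion receptors of leukocytes, to the actin network.

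The libraries held 6813832 to 7989226 reads in gene intervals, and 87.0% to 89.0% of all read rows named no gene. Most gene names in these tables appear displaced from the reads of those genes, so names were read only in rounded stretches of chromosomes 4, 6, 15 and 18 (GRCm38, the mm10 genome) where an earlier look at these data took names and reads to meet. All 10 genes lie there. Among protein-coding genes with given names, 58.7% of 494 inside the stretches averaged at least 50 reads, against 24.4% of 18096 outside; the stretches had been chosen on read counts, so this gap is no separate check. Of the 10 nearest such genes, 4 reached 50 reads on average around Capza2 and around Tes, 6 around Rock1 and Trio, 7 around Coro2a, 8 around Tln1, Svil, Arhgap12 and Arhgef39, and 10 around Tpm2. That each name sits on its own reads was not shown gene by gene.

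Setting BrQ beside Vehicle asks which of these genes differed in the lymph node after treatment. By edgeR's quasi-likelihood test with Benjamini-Hochberg adjustment over all 10223 features tested, 4 rose in BrQ (Capza2, Rock1, Svil and Coro2a) and 3 fell (Arhgef39, Tln1 and Arhgap12), while Tes, Trio and Tpm2 did not pass 0.05. All 10 genes passed the filter on low counts. Over all features tested the same rule called 45.7%, with 23.6% higher and 22.2% lower. Within the stretches it called 44.5% of 429 features, 21.4% higher and 23.1% lower. No test of the 10 genes against the rest was made. They moved in both directions, and their log2 fold changes had a median of 0.12, beside 0.051 over all features tested and -0.153 over those in the stretches. In 8 of the 10 genes the groups did not overlap (5 higher and 3 lower in BrQ), as in 76.1% of all features tested, 39.9% higher and 36.2% lower. Levels below are CPM, read counts scaled to a common library size with TMM factors, and errors are SDs over 2 mice unless an SE is named.

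**Figure D1:**
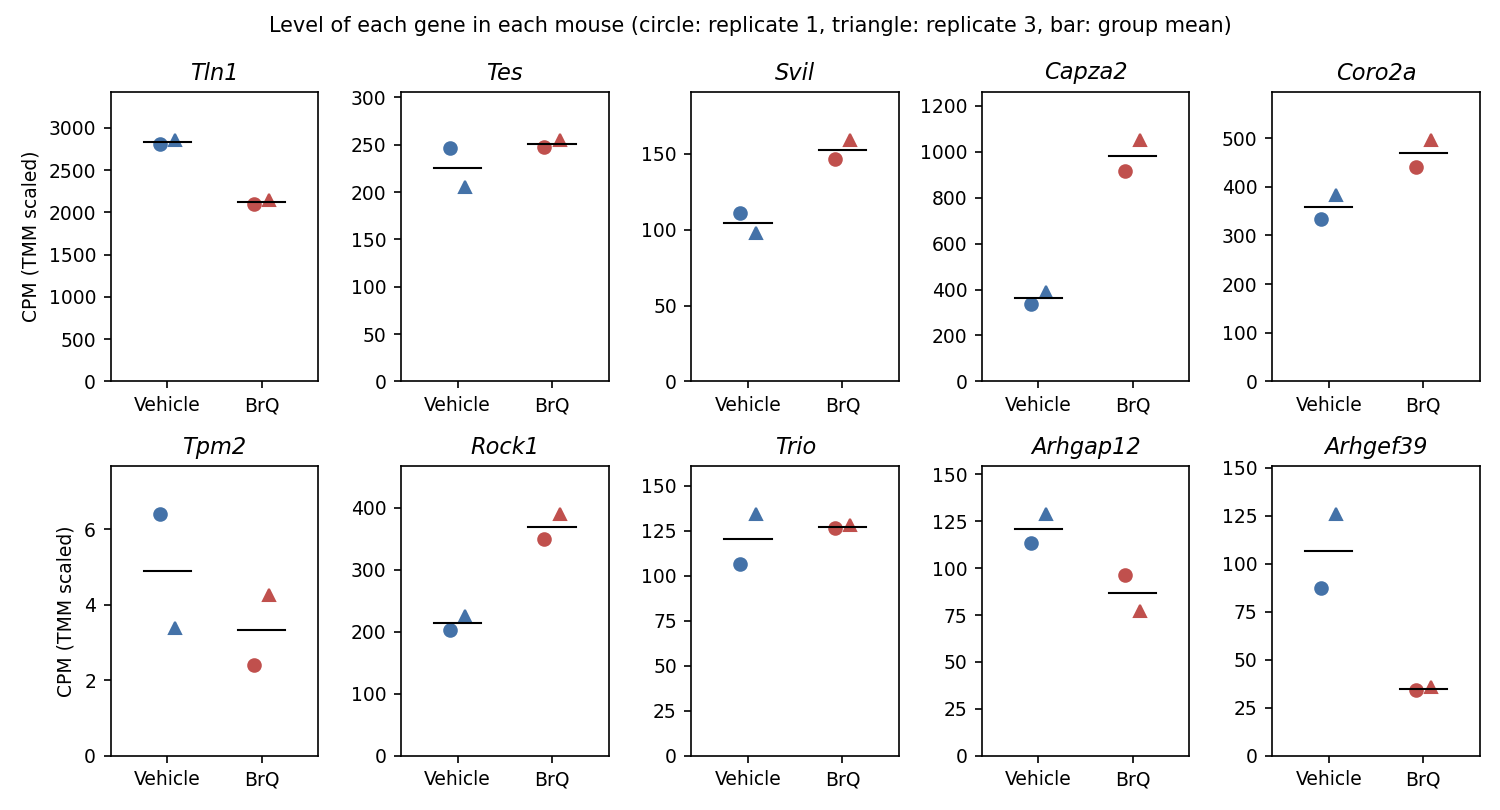
Level of each of the 10 genes in each mouse, in TMM-scaled CPM on axes that start at 0, with circles for replicate 1, triangles for replicate 3 and a bar at the group mean. The groups are clear of each other for all genes except Trio and Tpm2, and for Tes the gap is narrow (247.7 CPM in the lower BrQ mouse, 246.1 in the higher Vehicle mouse).

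Among the genes that act on the filament itself, Capza2 changed most. Capza2 encodes the alpha 2 subunit of capping protein, which binds the fast-growing end of the filament and stops it from adding actin. The gene lies on chromosome 6 from 17636234 to 17666972 on the plus strand, and its exons share no bases with another annotated gene. It drew 7237 and 8136 reads in BrQ replicates 1 and 3, and 2330 and 2541 in Vehicle replicates 1 and 3. Scaled, these were 914.1 and 1050 CPM against 338.5 and 389.9 CPM. The lower BrQ mouse stood far above the higher Vehicle mouse. The means were 982.0 ± 95.9 and 364.2 ± 36.4 CPM (n = 2 each), a 2.70-fold rise (log2 fold change 1.43, SE 0.14, adjusted p = 0.000114 with edgeR). The call held under each of 17 alternative settings, with log2 fold changes from 1.31 to 1.81. Met, 62.253 kb from Capza2, also rose (log2 fold change 1.87), as did Tfec at 737.792 kb (1.15). St7, at 25.96 kb, did not pass (-0.0055).

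Coro2a, a coronin of the family that binds filaments and regulates their branching and turnover, rose less. It lies on chromosome 4 from 46536937 to 46602202 on the minus strand. Its reads were 3494 and 3841 in BrQ and 2296 and 2490 in Vehicle, or 441.3 and 495.6 CPM against 333.6 and 382.1 CPM. Both BrQ mice were above both Vehicle mice, but by little more than the spread within a group. The means were 468.5 ± 38.4 and 357.9 ± 34.3 CPM, a 1.31-fold rise (log2 fold change 0.39, SE 0.14, adjusted p = 0.0430 with edgeR). This call was lost under 8 of 17 alternatives, among them RLE size factors, DESeq2 and the replicate block (adjusted p = 0.0800, edgeR), and without BrQ replicate 1, BrQ replicate 3 or Vehicle replicate 1 (adjusted p up to 0.282, edgeR). Trim14, on the same strand, starts 0.795 kb past the 3′ end of Coro2a and also rose (3.43-fold, log2 fold change 1.78, adjusted p = 0.000286 with edgeR), and 5.09% of the exon bases of Coro2a are shared with the predicted gene Gm16731 on the other strand. Whether reads from these neighbours enter the Coro2a count was not tested.

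Tpm2 encodes beta tropomyosin, which runs along the filament and is best known from muscle and other contractile cells. Reads numbered 19 and 33 in the BrQ mice and 44 and 22 in the Vehicle mice, or 2.40 and 4.26 CPM against 6.39 and 3.38 CPM. The groups overlap. The log2 fold change of -0.56 had an SE of 0.47 (adjusted p = 0.353 with edgeR), so a difference was not detectable at this depth. It moved from -1.03 without BrQ replicate 3 to -0.043 without Vehicle replicate 1. Tpm2 lies on chromosome 4 from 43514711 to 43523765.

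Sequence upstream of the start was set beside these values for the genes whose RefSeq start (GRCm38.p6) lies within 30 bases of a GENCODE M21 protein-coding start. RefSeq promoters matched 7 of the 10 genes, and 4 met this condition: Capza2 and Coro2a, which rose, and Tes and Trio, which did not pass. Each line runs 5′ to 3′ on the gene's strand from 250 to 31 bases before the start, 220 bases in all, with the motifs found in capitals.
Capza2 (plus strand, chr6:17636760-17636979): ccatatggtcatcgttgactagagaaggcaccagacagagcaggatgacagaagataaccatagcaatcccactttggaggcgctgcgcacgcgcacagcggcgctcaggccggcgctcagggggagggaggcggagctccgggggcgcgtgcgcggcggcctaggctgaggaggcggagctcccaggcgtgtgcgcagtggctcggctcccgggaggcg
Coro2a (minus strand, chr4:46566471-46566690): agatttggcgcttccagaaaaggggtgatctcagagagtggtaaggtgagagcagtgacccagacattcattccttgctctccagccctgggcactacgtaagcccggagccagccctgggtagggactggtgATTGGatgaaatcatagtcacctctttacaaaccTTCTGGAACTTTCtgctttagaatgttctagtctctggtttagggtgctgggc
Tes (plus strand, chr6:17064899-17065118): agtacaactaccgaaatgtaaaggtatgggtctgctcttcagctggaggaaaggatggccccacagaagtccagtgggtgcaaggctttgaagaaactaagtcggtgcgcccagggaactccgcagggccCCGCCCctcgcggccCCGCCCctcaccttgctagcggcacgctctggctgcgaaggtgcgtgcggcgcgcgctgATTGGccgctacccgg
Trio (minus strand, chr15:28025879-28026098): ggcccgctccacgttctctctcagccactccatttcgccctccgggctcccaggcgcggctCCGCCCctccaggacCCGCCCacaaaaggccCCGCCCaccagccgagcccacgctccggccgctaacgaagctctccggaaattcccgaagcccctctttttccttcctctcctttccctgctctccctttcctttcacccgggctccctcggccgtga
Motifs were searched on both strands as exact letters: the GC box GGGCGG, the CCAAT box CCAAT, the CArG box of serum response factor (a regulator of many actin genes) and the heat shock element (TTC, GAA and TTC, each spaced by 2 bases of any kind), the last added after the sequences had been read. None of the matches overlap. The Trio window holds 3 GC boxes, and the Tes window 2 GC boxes and 1 CCAAT box. The Coro2a window, at the downstream one of its 2 RefSeq starts, holds 1 CCAAT box and 1 heat shock element. The window at the upstream start, not printed, is 70.9% G and C and holds 2 GC boxes and no other of the 4 motifs. The Capza2 window, 68.2% G and C, holds none of the 4 motifs. Of all 32851 promoter windows of this length, 28.5% hold a GC box, 31% a CCAAT box, 1.30% a CArG box and 0.399% this heat shock element. The element in Coro2a is a match of letters, not a shown binding site. Since this motif was added after the sequences had been read, its share over all windows does not measure how unusual the match is.

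Of the genes that tie actin to adhesions and membranes, Tln1 was by far the most abundant and fell modestly, while Svil rose. Tln1 encodes talin 1, which activates integrins and anchors them to actin, and lies on chromosome 4 from 43531519 to 43562691 on the minus strand. Reads numbered 16593 and 16658 in the BrQ mice and 19351 and 18590 in the Vehicle mice. These were 2096 and 2149 CPM against 2812 and 2853 CPM. The mice of a group lay close together, and the gap between groups was many times wider. The means were 2123 ± 37.8 and 2832 ± 29.2 CPM (n = 2 each), 1.33-fold lower in BrQ (log2 fold change -0.42, SE 0.12, adjusted p = 0.0177 with edgeR). The call depended on how libraries were scaled. With library size alone the log2 fold change was -0.045 (adjusted p = 0.853, edgeR), with library size from all read rows -0.21 (adjusted p = 0.237, edgeR) and with TMM factors from the stretches -0.35 (adjusted p = 0.0529, edgeR), and it was also lost without BrQ replicate 1 or BrQ replicate 3. Over its alternatives the adjusted p ran from 0.00527 to 0.853. Of its exon bases, 3.67% are shared with Creb3 on the other strand.

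Svil encodes supervillin, a membrane-associated protein that binds actin and myosin. It lies on chromosome 18 from 4920540 to 5119299 on the plus strand. Reads numbered 1161 and 1232 in the BrQ mice and 765 and 639 in the Vehicle mice, or 146.6 and 159.0 CPM against 111.1 and 98.1 CPM. Both BrQ mice stood above both Vehicle mice. The means of 152.8 ± 8.71 and 104.6 ± 9.25 CPM gave a 1.46-fold rise (log2 fold change 0.55, SE 0.15, adjusted p = 0.0151 with edgeR). The call was lost without the filter on low counts, without BrQ replicate 1 and without BrQ replicate 3 (adjusted p = 0.124, edgeR), and the sign stayed positive in all 17 alternatives.

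Tes encodes testin, a LIM domain protein of focal adhesions. Reads numbered 1961 and 1975 in the BrQ mice and 1694 and 1337 in the Vehicle mice, or 247.7 and 254.8 CPM against 246.1 and 205.2 CPM. Vehicle replicate 1 lay next to the BrQ mice and Vehicle replicate 3 below them. The log2 fold change was 0.15 (SE 0.14, adjusted p = 0.402 with edgeR), and it passed only with library size alone (0.52, adjusted p = 0.0271, edgeR). Tes lies on chromosome 6 from 17065149 to 17105828, 530.4 kb from Capza2.

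Of the genes of small GTPase signalling, Rock1 rose and both Arhgef39 and Arhgap12 fell. Rock1 encodes a kinase that small GTPases activate and that raises myosin contraction. It lies on chromosome 18 from 10064401 to 10182045 on the minus strand. Reads numbered 2767 and 3013 in the BrQ mice and 1398 and 1463 in the Vehicle mice. In CPM these were 349.5 and 388.8 against 203.1 and 224.5. The gap between the groups was several times that between mice of a group. The means were 369.1 ± 27.8 and 213.8 ± 15.1 CPM (n = 2 each), a 1.73-fold rise (log2 fold change 0.79, SE 0.14, adjusted p = 0.00178 with edgeR). It stayed called under all 17 alternatives, at 0.70 to 1.16.

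Arhgef39, a GEF of the Dbl family, had the largest fall. In GENCODE M21 it is a short gene on chromosome 4 from 43496142 to 43499695 on the minus strand. There its exons share no bases with another annotated gene. RefSeq places its start at 43508747, 9052 bases from the nearest GENCODE protein-coding start and within the span of Car9 (43506966 to 43513729). Reads numbered 269 and 279 in the BrQ mice and 600 and 819 in the Vehicle mice, or 34.0 and 36.0 CPM against 87.2 and 125.7 CPM. The BrQ mice were nearly alike, and the Vehicle mice differed from each other but both stood well above them. The means were 35.0 ± 1.43 and 106.4 ± 27.2 CPM, 3.04-fold lower in BrQ (log2 fold change -1.60, SE 0.20, adjusted p = 0.000358 with edgeR). It was called under all 17 alternatives, from -1.86 without Vehicle replicate 1 to -1.22 with library size alone. Ccdc107, whose 3′ end lies 0.220 kb from that of Arhgef39, fell 3.89-fold (adjusted p = 5.85e-05 with edgeR, log2 fold change -1.96). The exons of the pair do not overlap in GENCODE M21, and whether reads run from one into the other was not tested.

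Arhgap12, a GAP for Rac-type GTPases, fell slightly. It lies on chromosome 18 from 6024427 to 6136098. Reads numbered 764 and 597 in the BrQ mice and 779 and 838 in the Vehicle mice, or 96.5 and 77.0 CPM against 113.2 and 128.6 CPM. The groups were apart, by about the distance between mice of one group. The means of 86.8 ± 13.8 and 120.9 ± 10.9 CPM were 1.39-fold lower in BrQ (log2 fold change -0.48, SE 0.17, adjusted p = 0.0413 with edgeR). The call was lost under 8 alternatives: library size alone (-0.10), library size with all read rows, TMM factors from the stretches, no low count filter, the replicate block (adjusted p = 0.0739, edgeR), and without BrQ replicate 1, BrQ replicate 3 or Vehicle replicate 3 (adjusted p from 0.00996 to 0.688 over all alternatives, edgeR).

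Trio encodes a large protein with 2 GEF domains that act on different small GTPases, and lies on chromosome 15 from 27730651 to 28025848. Reads numbered 1003 and 991 in the BrQ mice and 734 and 873 in the Vehicle mice, or 126.7 and 127.9 CPM against 106.6 and 134.0 CPM. The Vehicle mice lay on either side of the BrQ mice. The log2 fold change was 0.082 (SE 0.16, adjusted p = 0.700 with edgeR), and turned to -0.093 without Vehicle replicate 1. With library size alone it was 0.46 and passed (adjusted p = 0.0422, edgeR).

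**Figure D2:**
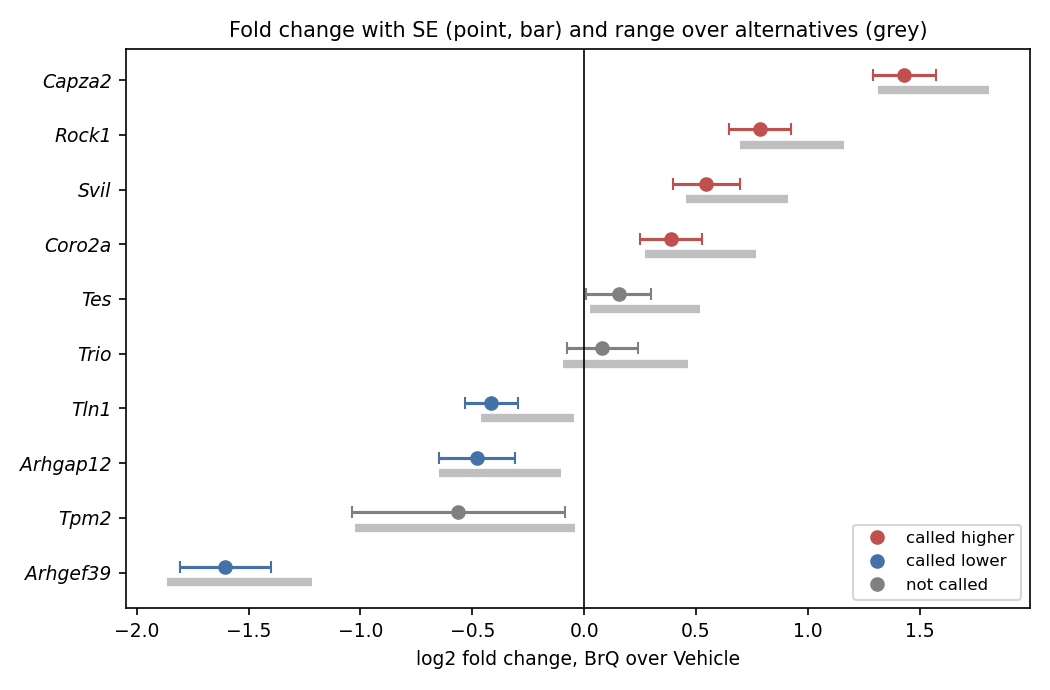
Log2 fold change of BrQ over Vehicle for each gene (point, with its SE as a bar; red called higher, blue called lower, grey not called) and, as a grey band under it, the range over 17 alternative settings. The bands of Capza2, Rock1 and Arhgef39 lie far from 0. Those of Tln1, Arhgap12, Tes and Tpm2 reach close to 0, and that of Trio crosses it.

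Which of the genes were called moved with the scaling of the libraries. TMM factors were 1.14 in both BrQ libraries and 0.944 and 0.818 in Vehicle replicates 1 and 3, and with library size alone the median log2 fold change of all features rose by 0.369. Under library size alone 6 of the genes were called higher and 1 lower, beside 35.3% of all features called higher and 10.5% lower, in place of 4 and 3: Tln1 and Arhgap12 lost their calls, and Tes and Trio gained them. In that setting the median over all features was 0.42, and over the stretches 0.223. Tln1 (-0.045) and Arhgap12 (-0.10) were below both medians. Tes (0.52) and Trio (0.46) were little above the median over all features. Ratios of reads within a library do not depend on scaling. For each read of Tln1 there were 0.436 and 0.488 reads of Capza2 in BrQ replicates 1 and 3, and 0.120 and 0.137 in Vehicle replicates 1 and 3. The log2 ratio was 1.85 higher in BrQ (-1.12 ± 0.12 against -2.96 ± 0.13). Rock1 per read of Tln1 was likewise higher, by 1.20 on the log2 scale, and Arhgef39 per read of Tln1 was lower, at -5.92 ± 0.033 in BrQ and -4.76 ± 0.36 in Vehicle. Capza2 per read of its chromosome 6 neighbour Tes was higher by 1.27, and Rock1 per read of Arhgap12, the GAP on the same chromosome, also by 1.27. The pairs were set by hand with results of these data known. Each ratio restates the difference between fold changes given above, so it is no separate support for them. The ratios also do not tell which gene of a pair changed. With 2 mice against 2, an exact permutation test cannot give a two-sided p below 0.33, so none was run on the ratios.

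Levels were compared between genes per kilobase of exon (CPM divided by the exon length in GENCODE M21). In Vehicle, Tln1 stood at 289.0 ± 2.98 CPM per kilobase, followed by Capza2 at 61.8 ± 6.17 and Coro2a at 55.4 ± 5.31, and the mice of these 2 genes overlapped. Arhgef39 (39.8 ± 10.2) and Tes (33.0 ± 4.24) also overlapped. Below them came Arhgap12 at 15.1 ± 1.36, Rock1 at 11.8 ± 0.836, Svil at 9.78 ± 0.865, Trio at 5.14 ± 0.826 and Tpm2 at 1.68 ± 0.733 CPM per kilobase, with no overlap between neighbours in this order. In BrQ, Tln1 (216.6 ± 3.86) still led, and Capza2 (166.7 ± 16.3) was closer to it than to Coro2a (72.5 ± 5.94). Tes stood at 36.8 ± 0.739 and Rock1 at 20.4 ± 1.53 CPM per kilobase. Rock1 moved from the seventh to the fifth place and Arhgef39 from the fourth to the seventh (13.1 ± 0.534 CPM per kilobase), close to Svil (14.3 ± 0.814) and Arhgap12 (10.8 ± 1.72).

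**Figure D3:**
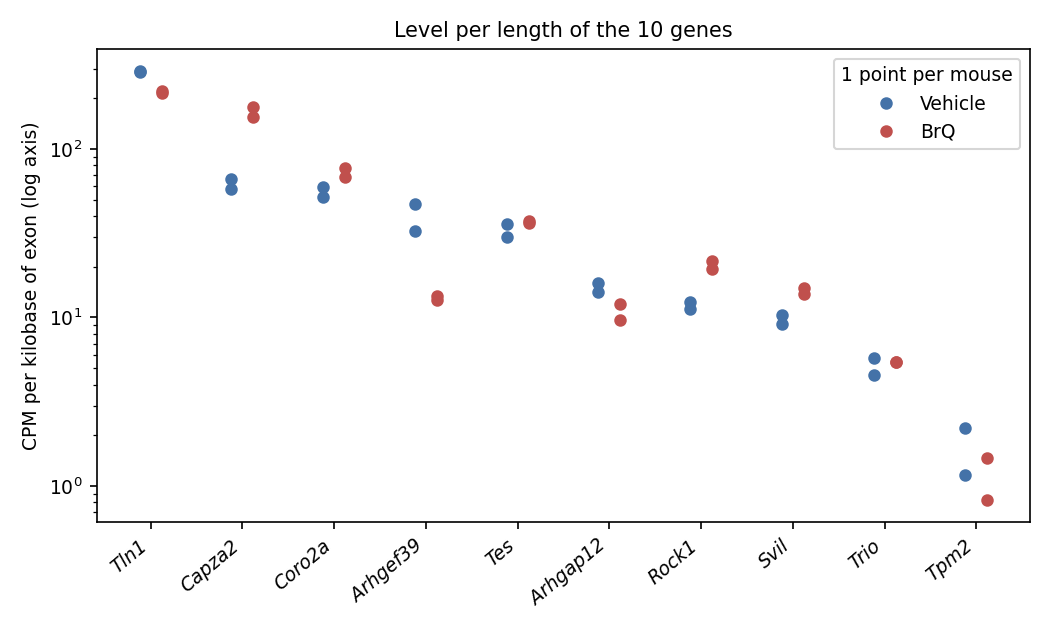
Level per length of each gene in each mouse (CPM per kilobase of exon, log axis; blue Vehicle, red BrQ), ordered by the Vehicle mean. Tln1 leads in both groups, from 213.8 to 291.1 CPM per kilobase. Arhgef39 drops from the range of Tes in Vehicle to between the ranges of Arhgap12 and Svil in BrQ.

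Several of the genes are near each other on the genome. Tpm2, Tln1 and Arhgef39 sit close together on chromosome 4: 7.753 kb separate Tln1 and Tpm2, and 15.015 kb Tpm2 and Arhgef39. Of these, Arhgef39 fell 3.04-fold, Tln1 1.33-fold, and Tpm2 did not pass. Coro2a, which rose, lies in the same stretch, 2974.2 kb from Tln1. Of the 10 named protein-coding genes nearest Arhgef39, Ccdc107, Tesk1, Gba2, Cd72, Sit1 and Creb3 were also called lower with edgeR. Their log2 fold changes were -1.96, -1.10, -1.05, -1.01, -0.78 and -0.44, in that order. Creb3 lost its call under 8 of 17 alternatives. Car9 held 45 to 59 reads, and Fam166b at most 2. Whether these falls share a source was not tested. On chromosome 18, Svil (rose) and Arhgap12 (fell) are 905.1 kb apart, and Rock1 (rose) lies 3928.3 kb beyond Arhgap12. On chromosome 6, Capza2 rose and Tes did not pass. No chromosome with more than 1 of the genes had them all on the same side of the threshold in the same direction.

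A wider list of 111 actin, adhesion and migration genes was read in the same stretches. It was written with results of these data known, and Gem, Met and Cdh17 had already been seen to be higher, so its counts are a description. The stretches hold 22 of these genes, 15 passed the low count filter, 5 were called higher and 2 lower, and 8 did not pass, beside 45.7% of all features called (23.6% higher, 22.2% lower). Of the features tested in the stretches, 44.5% were called, 21.4% higher and 23.1% lower. The median log2 fold change of the list was 0.10, beside 0.051 over all features tested and -0.153 over those in the stretches. Higher were Met, the receptor for hepatocyte growth factor (log2 fold change 1.87, SE 0.27), Cdh17, a cadherin (1.75, SE 0.25), Gem, a small GTPase that restrains the ROCK kinases (1.63, SE 0.20), Kif5b, a kinesin that moves on microtubules and not on actin (0.91, SE 0.16), and Lyn, a Src-family kinase of B and myeloid cells (0.81, SE 0.13). Met and Cdh17 stood at 29.0 ± 6.21 and 29.7 ± 0.537 CPM in BrQ and under 10 CPM in Vehicle, while Lyn was abundant in both groups, at 1143 ± 94.8 and 652.4 ± 53.5 CPM. Lower were Tesk1, a kinase that phosphorylates cofilin (log2 fold change -1.10, SE 0.15; 351.5 ± 34.7 against 755.1 ± 96.2 CPM), and Tmod1, which caps the slow-growing filament end (-0.85, SE 0.18; 71.4 ± 12.3 against 128.6 ± 16.5 CPM). The call of Tmod1 was lost with library size alone and without BrQ replicate 3. Ctnnal1, an alpha-catenin-like protein, did not pass (log2 fold change -0.52, SE 0.27, adjusted p = 0.145 with edgeR), except without Vehicle replicate 1. Of the 22 genes, 4 held 0 reads in all 4 libraries.

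**Figure D4:**
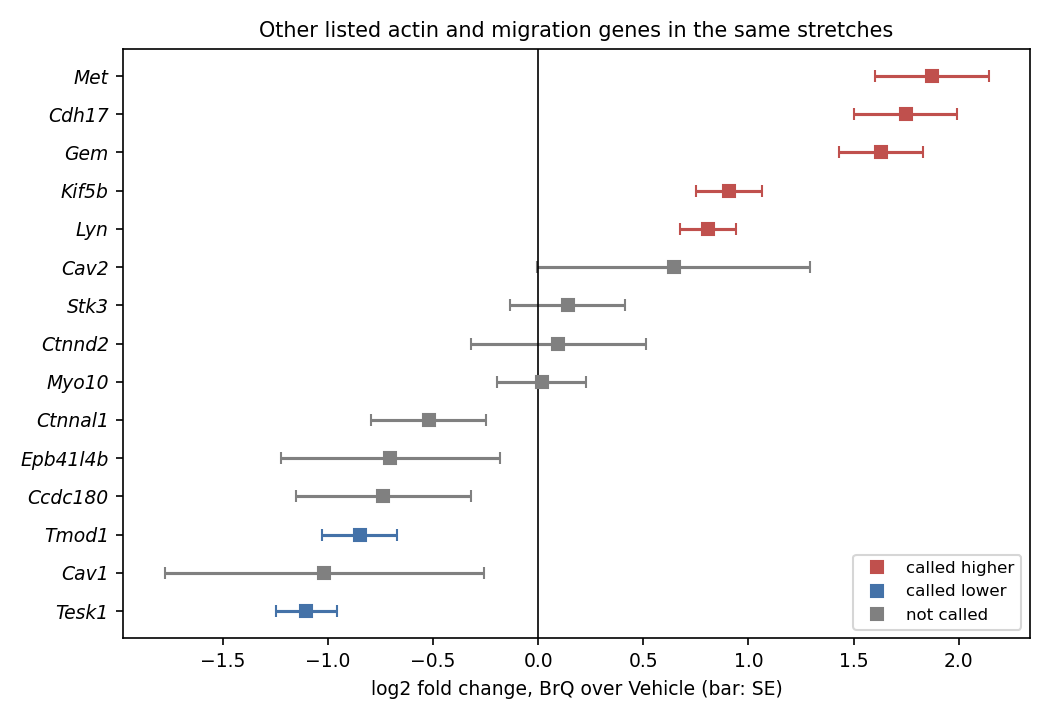
Log2 fold change of BrQ over Vehicle, with its SE, for the 15 tested genes of the wider actin and migration list (red called higher, blue called lower, grey not called). The 5 higher genes lie between 0.81 and 1.87 and the 2 lower ones at -0.85 and -1.10.

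Some of the listed cell type markers in the stretches also differed between the groups. Of the lymphocyte list, 4 of 13 markers lie in the stretches (Cd72, Il7r, Pax5 and Sit1). Their summed level was 2673 and 2809 CPM in the BrQ mice and 4213 and 4415 CPM in the Vehicle mice. Of the 4, 3 were called lower, Pax5 being the exception, beside 22.2% of all features tested and 23.1% of those in the stretches. With library size alone Il7r and Sit1 lost the call and Pax5 changed sign, which left Cd72 alone called lower; Il7r also lost it without BrQ replicate 1. In the main comparison Tln1, Arhgap12 and Arhgef39 also fell, while Capza2, Rock1, Svil and Coro2a rose. Cd72 and Sit1 are 41.513 and 12.407 kb from Arhgef39. Lyn, a kinase of B and myeloid cells that is outside this list but in the stretches, rose (log2 fold change 0.81). Of the stroma list, 2 of 9 markers lie there (Col1a2 and Cav1), with summed levels of 12.8 to 13.9 CPM in BrQ and 19.0 to 27.5 CPM in Vehicle; Col1a2 was called lower with edgeR (adjusted p = 0.0352, log2 fold change -0.78), a call that 8 alternatives did not give. Of the muscle list, 3 of 8 lie there: Flnc and Musk held at most 1 read in any library, and Tmod1 is not restricted to muscle. The only fat marker there, Lep, held 0 reads. The part of cell makeup in the rises and falls above was not tested.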

How the data were processed

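Per the labels' protocols, total RNA from lymph nodes of 4 different mice was sequenced in paired ends. The submitters' processing notes name mm10, HTSeq (0.11.2), HISAT2 (2.1.0) and Trim Galore (0.6.2). The sources used here give neither annotation release nor strand setting. The authors deposited raw read counts per gene ID, 1 table per mouse; 5 rows that name no gene (87.0% to 89.0% of all read rows) entered neither library sizes nor tests. Sample titles gave the groups and replicate numbers.

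All features were tested together with edgeR 4.0.16 in R 4.3.3 (filterByExpr, TMM, quasi-likelihood test with group as the only term, Benjamini-Hochberg adjustment, threshold 0.05). The SE is the absolute log2 fold change divided by the square root of F. Positions, exon lengths and overlaps came from GENCODE M21. The stretches and gene lists, like the 10 genes, were chosen with earlier results of these data known. All 10 genes are named; of the wider actin list, up to 8 with the smallest p are. Alternatives were other scaling, other low count filters, the legacy fit, DESeq2 1.42.0, limma voom (limma 3.58.1), a block for the replicate number, leaving out each library in turn and a fit on the stretches alone. The test was checked on simulated counts for BrQ vs Vehicle: of 9916 features, 100 were changed 2-fold and 37 of them recovered, 100 were changed 4-fold and 88 recovered, with 7 false calls among 132. All simulated features shared the same dispersion, most were unchanged, and no change under 2-fold was set. The simulation therefore does not check the scaling, the small fold changes or the rate of false calls in the real libraries. Libraries of a group were not copies of each other (chi-square per degree of freedom 13.7 within BrQ and 29.2 within Vehicle). Each SD comes from 2 mice.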

Additional observations from a re-analysis of the deposited data

Results flagged for a closer look

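Reads that name no gene lie outside the comparison, and their share of all read rows averaged 88.9% in BrQ and 87.5% in Vehicle. Both BrQ libraries (88.7% and 89.0%) were above both Vehicle libraries (88.0% and 87.0%).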

How the results depend on the processing

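Capza2, Rock1 and Arhgef39 kept their calls and directions under all 16 alternatives listed in the methods. Over the 10 genes and these alternatives, 133 values kept direction and side of the threshold, 24 lost the call, 2 gained it (Tes and Trio with library size alone) and 1 changed sign (Trio, from 0.082 to -0.093 without Vehicle replicate 1; with 1 library left out it ran from -0.093 to 0.25). The number of these genes called lower fell from 3 to 1 with library size alone, with all read rows as library size and with TMM factors from the stretches. Of all 10223 features, these settings called 1072, 1578 and 2042 lower in that order, against 2267 in the main fit. The number of these genes called higher fell from 4 to 2 with no low count filter. That fit tested 21036 features and called 1307 higher, against 2409 of 10223 in the main fit. With 1 library left out, 2 to 4 were called higher and 1 to 3 lower, and the lone mouse of a group was taken to vary like the other group. Over all features 4676 were called, 2481 with no low count filter and 2359 to 4817 with 1 library left out. Of the wider list, 2 were called lower, 1 with library size alone and 1 to 3 with 1 library left out.

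Deviations of same-numbered mice correlated at -0.12 over 10223 features. With 2 mice per group, this cannot settle whether the replicate numbers pair the samples. With the replicate block 4190 features were called, 3 of the 10 genes higher and 2 lower. With the numbers crossed, added after seeing the data, 5284 were called, 4 of the 10 genes higher and 3 lower.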
